A study of Mus musculus with 9 samples.

Results

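Progesterone prepares the uterus for the embryo by switching on a set of genes in the epithelium and the stroma before implantation. Known members of that set in the mouse are Calca, Fst, Il13ra2, Fkbp5, Fkbp4, Hdc, Cyp26a1, Gata2 and Sox17, and these 9 genes were followed through every probe set that the platform annotation gives to 1 of them alone. Of the 9 genes, 8 had such probe sets, 16 of the 45037 probe sets on the array. Calca, which encodes calcitonin, was not analysed here, since no probe set of 1 gene carried its name in the annotation used. Gene expression had been measured in whole uteri of 3 groups of mice at gestation day (GD) 3.5, with 3 Affymetrix mouse genome arrays in each group. The double-knockout group (Mig-6 d/d Erbb2 d/d) lacked Mig-6 (the gene Errfi1) and Erbb2, and the Mig-6 d/d group lacked Mig-6 alone. In both, cre expressed from the Pgr locus deleted the floxed alleles in cells that express the progesterone receptor. Control mice had the floxed alleles undeleted, either Mig-6 f/f alone or this together with Erbb2 f/f, and the labels do not say which control array was which. All were females on a mixed C57BL/6 and 129P2/OlaHsd background. The labels give an age of 2 weeks, while the methods describe adult mice. Each RNA was a pool of several mice, and it was not given whether replicate arrays had pools of their own, so the p-values measure the spread between arrays, which may be technical.

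Before implantation progesterone acts through its nuclear receptor in epithelium and stroma, and estrogen drives the epithelium to divide until progesterone stops it. Mig-6 is itself induced by progesterone in the mouse uterus and restrains signalling by the receptors of the epidermal growth factor family, to which Erbb2 belongs. The genes described here stand at several steps of the response. Gata2 and Sox17 are transcription factors, Fkbp4 and Fkbp5 are cochaperones of the receptor itself, and Fst, Il13ra2, Hdc and Cyp26a1 are products that act on activins, interleukin-13, histamine and retinoic acid.

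The arrays were even in scale, with median intensities between 7.87 and 8.24. Errfi1 had intensities of 76.05, 29.83 and 40.34 in the double knockout and 15.13, 15.96 and 254.61 in Mig-6 d/d, against 454.01, 564.48 and 286.04 in control. The third of the Mig-6 d/d values lay near control, so that array is named by its label, as the one labelled Mig-6 d/d replicate 3. Erbb2 had 18.27, 9.88 and 18.45 in the double knockout, against 46.55, 39.51 and 44.53 in Mig-6 d/d and 29.39, 36.69 and 45.73 in control. Pgr, which encodes the progesterone receptor and whose locus carries the cre in both knockouts, had 728.73, 791.12 and 985.55 in the double knockout and 872.57, 797.59 and 587.51 in Mig-6 d/d, against 1064.74, 1106.85 and 1612.76 in control. Every knockout array lay below every control array in Pgr, although limma called it in neither knockout. Its log2 change against control was -0.58 with both genes deleted (adjusted p = 0.448) and -0.74 with Mig-6 alone deleted (adjusted p = 0.0734). Nor was Errfi1 called by limma in either knockout. The log2 change of Errfi1 against control was -3.215 with both genes deleted (adjusted p = 0.303) and -3.407 with Mig-6 alone deleted (adjusted p = 0.0719). A whole uterus mixes many cell types, so fewer cells of a type and less RNA per cell cannot be told apart in any value given here, and the arrays do not show in which cells a gene was expressed.

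None of the 8 genes passed the test in any of the 3 comparisons with all arrays. A call required an adjusted p under 0.05 (limma, Benjamini-Hochberg over all 45037 probe sets) and a change above 1.5-fold, with each gene read at its brightest probe set. Between the double knockout and control 0 of 8 genes were called, where 0.407% of all 18193 genes were. Between Mig-6 d/d and control 0 of 8 were called, where 4.35% of all genes were. Between the double knockout and Mig-6 d/d 0 of 8 were called, where 7.48% of all genes were. With so few genes, 0 calls lie near these shares. Of all 16 probe sets 0 were called in any comparison, where 0.357, 2.81 and 5.13% of all probe sets were. At an unadjusted p under 0.05, 0 of the 8 genes passed in the double knockout against control and 0 in Mig-6 d/d against control, where 7.95 and 24% of all genes did. Gata2 and Fkbp4 passed between the double knockout and Mig-6 d/d, 2 of 8 genes, where 26.5% of all genes did. The unpaired two-tailed test that the methods name, run on the same values with the 1.5-fold limit, called 0 of the 8 genes in any comparison. Without the one labelled Mig-6 d/d replicate 3, limma again called 0 of the 8 genes in each comparison. In that fit the log2 fold change of Cyp26a1 between the knockouts was -1.45 (adjusted p = 0.296), and that of Sox17 in Mig-6 d/d against control was 0.10 (adjusted p = 0.912), of the other sign than with all arrays.

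The median log2 fold change of the 8 genes was 0.22 in the double knockout against control, where the median over all genes was 0.00977. It was 0.01 in Mig-6 d/d against control, where that over all genes was -0.0256, and 0.31 between the double knockout and Mig-6 d/d, where that over all genes was 0.032. The medians against control turned with single arrays. Without control replicate 3 they were -0.11 in the double knockout and -0.20 in Mig-6 d/d, and without Mig-6 d/d replicate 2 the median in Mig-6 d/d was -0.42. These values do not show that the genes were unchanged. The 95% confidence interval of the change lay within 1.5-fold in either direction for Gata2 and Fkbp4 in both comparisons with control, and for Gata2 alone between the knockouts. For the other 6 genes the interval reached past 1.5-fold in every comparison, as did that of Fkbp4 between the knockouts. A change of that size was therefore not excluded there. For the other 6 genes, the values on single arrays spread widely within some of the groups or all of them.

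**Figure D1:**
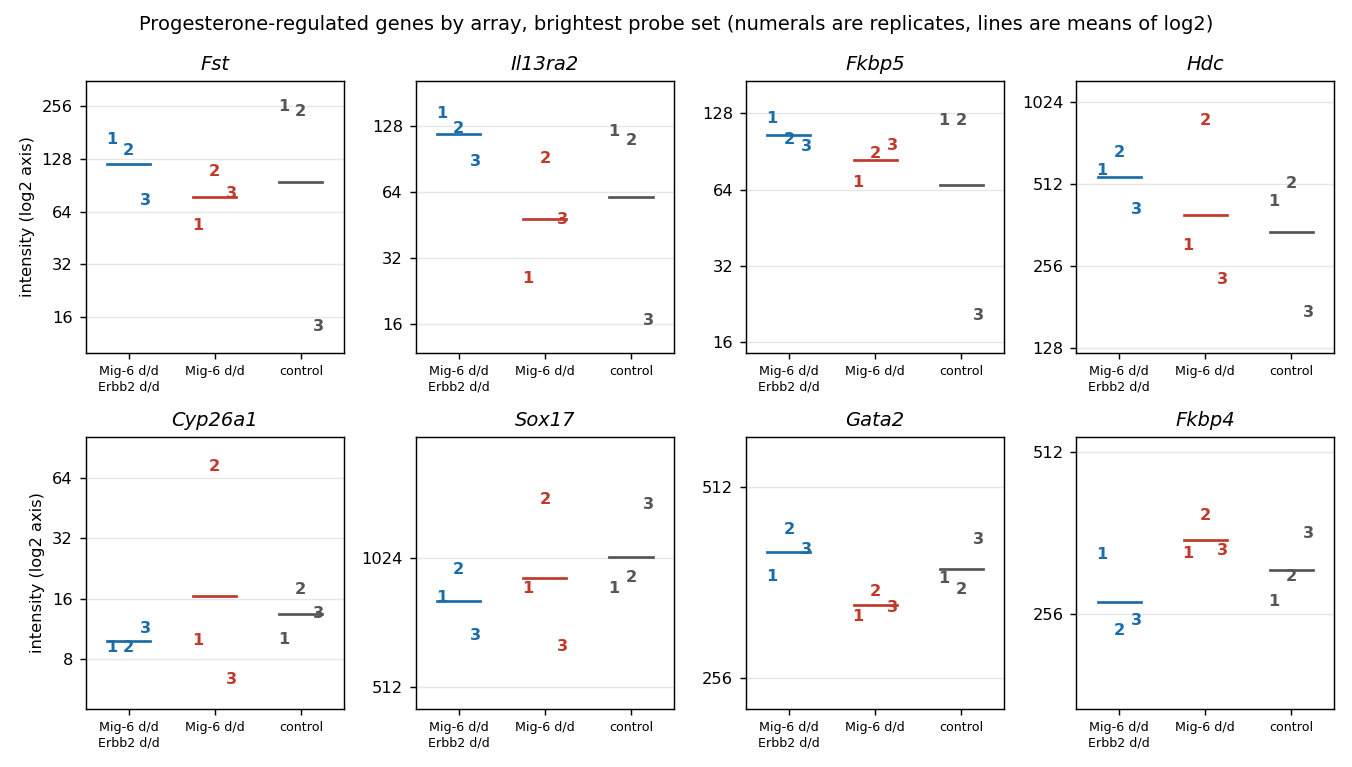
Intensity (log2 axis) of the 8 genes at the brightest probe set on each of the 9 arrays, with numerals for replicates and lines for the mean of the log2 values of a group. Control replicate 3 lies far below both other control arrays in Fst, Il13ra2, Fkbp5 and Hdc, and Mig-6 d/d replicate 2 far above its group in Cyp26a1 and Hdc.

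Follistatin, the product of Fst, is a secreted protein that binds activins and keeps them from their receptors, and in mice it is needed for normal implantation. Its intensities were 164.46, 143.83 and 73.68 in the double knockout and 53.43, 108.7 and 80.82 in Mig-6 d/d, against 255.02, 239.05 and 14.01 in control. The groups overlapped, as the control arrays held both the highest values and the lowest. Control replicate 3 lay 17.6-fold below the mean of the other 2 control arrays. On the second Fst probe set the values were 91.19, 74.83 and 60.74 in the double knockout and 30.51, 66.57 and 59.51 in Mig-6 d/d, against 170.19, 138.77 and 11.51 in control. The log2 fold change of Fst was 0.34 in the double knockout against control (SE 0.92, adjusted p = 0.971), -0.29 in Mig-6 d/d against control (adjusted p = 0.921) and 0.63 between the knockouts (adjusted p = 0.792). Without control replicate 3, Fst was called decreased in Mig-6 d/d against control, at a log2 fold change of -1.67 with an SE of 0.35 (adjusted p = 0.0391, limma). It was the 1 gene of the 8 called in that fit. Both of its probe sets passed, 2 of the 16, where 2.95% of all probe sets did. A share of all genes was not computed for that fit. The same fit called 0 of the 16 probe sets in the double knockout against control (0.242% of all probe sets were called) and 0 between the knockouts (5.65%). Whether that array or the other control arrays stand for control uteri was not tested.

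Il13ra2 encodes a receptor that binds interleukin-13 with high affinity and is known mainly as a decoy. The 250 bases before its RefSeq start site (GRCm38.p6, chrX:147429193-147429442, minus strand) are shown because the gene is 1 of 4 whose values went together across the arrays. Capitals mark a GATA motif, the letters AGATAA or TTATCT on either strand, which 9.99% of 32851 promoters hold in the same window.
Il13ra2: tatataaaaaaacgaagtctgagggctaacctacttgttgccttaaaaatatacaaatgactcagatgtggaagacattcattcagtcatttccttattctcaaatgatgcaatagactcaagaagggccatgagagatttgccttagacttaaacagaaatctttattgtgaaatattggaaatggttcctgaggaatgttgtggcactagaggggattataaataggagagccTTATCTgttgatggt
The intensities of Il13ra2 were 146.01, 124.5 and 87.51 in the double knockout and 25.66, 90.97 and 47.7 in Mig-6 d/d, against 120.93, 109.09 and 16.59 in control. Double-knockout values exceeded those of Mig-6 d/d except for 1 array on each side (87.51 and 90.97), and control replicate 3 was the lowest of all 9, 6.92-fold below the mean of the other control arrays. Between the knockouts the log2 fold change of Il13ra2 was 1.28 (95% interval -0.26 to 2.82, adjusted p = 0.352). Against control it was 0.95 in the double knockout (adjusted p = 0.838) and -0.32 in Mig-6 d/d (adjusted p = 0.873). Without control replicate 3 the changes against control were 0.02 in the double knockout (adjusted p = 0.997) and -1.26 in Mig-6 d/d (adjusted p = 0.167), and the change between the knockouts had an adjusted p of 0.0808.

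Fkbp5 and Fkbp4 encode immunophilins that join the progesterone receptor together with Hsp90. Fkbp5 is induced by progesterone and glucocorticoids and dampens receptor activity, while Fkbp4 promotes it and is needed for implantation in mice. Fkbp5 had intensities of 122.78, 100.72 and 95.05 in the double knockout and 68.3, 89 and 95.7 in Mig-6 d/d, against 120.49, 120.49 and 20.4 in control. Apart from control replicate 3, which lay 5.91-fold below the other 2, the arrays stayed between 68.3 and 122.78. The log2 fold changes were 0.66 in the double knockout against control (adjusted p = 0.872), 0.32 in Mig-6 d/d against control (adjusted p = 0.835) and 0.34 between the knockouts (adjusted p = 0.819). Without control replicate 3 both changes against control had the other sign, -0.19 in the double knockout (adjusted p = 0.913) and -0.53 in Mig-6 d/d (adjusted p = 0.132). The second Fkbp5 probe set was dim, at 8.68, 8.28 and 9 in the double knockout and 7.23, 9.07 and 7.61 in Mig-6 d/d, against 9.93, 12.48 and 5.41 in control, with control replicate 3 again the lowest. The last one lay near the floor of the array, between 2.5 and 3.28.

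Fkbp4 stayed between 239.21 and 390.13 over the 9 arrays. Its intensities were 330.08, 239.21 and 249.54 in the double knockout and 331.69, 390.13 and 335.8 in Mig-6 d/d, against 270.72, 301.2 and 362.37 in control. All 3 arrays of the double knockout lay below all 3 of Mig-6 d/d, by a small margin. The log2 fold change between the knockouts was -0.38 (95% interval -0.72 to -0.04, adjusted p = 0.186, limma). Such a separation of all arrays between these groups, in either direction, was found in 2 of the 8 genes (Fkbp4 and Gata2) and in 32.8% of all genes. Against control the change was -0.19 in the double knockout (adjusted p = 0.854) and 0.19 in Mig-6 d/d (adjusted p = 0.594). The 2 dimmer probe sets of Fkbp4 followed the brightest one only loosely over the 9 arrays (r = 0.30 and 0.47), and neither separated the knockouts.

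Hdc encodes histidine decarboxylase, which makes histamine and which progesterone induces in the mouse uterine epithelium. Its RefSeq promoter holds 1 half-site of the hormone response element that steroid receptors bind, AGAACA or TGTTCT on either strand, within the 250 bases before the start site (shown in capitals; GRCm38.p6, chr2:126618799-126618826, minus strand). It is shown because Hdc was the 1 of the 7 genes with a RefSeq promoter entry to have it, although 16.1% of all promoters do. None of the 7 held the full inverted repeat of that element (0.387% of promoters), and such a match or its lack describes letters, not a site.
Hdc: taaaaacaccaTGTTCTctgattctgtt
The intensities of Hdc were 571.81, 668.17 and 412.8 in the double knockout and 303.57, 869.45 and 227.31 in Mig-6 d/d, against 441.21, 514.51 and 172.17 in control. The highest value of all, 869.45, was that of Mig-6 d/d replicate 2, more than 2-fold above both other arrays of its group, and the lowest that of control replicate 3, 2.77-fold below the mean of the other control arrays. Both Hdc probe sets ran together (r = 0.997 over the 9 arrays). The log2 fold changes were 0.67 in the double knockout against control (adjusted p = 0.847), 0.21 in Mig-6 d/d against control (adjusted p = 0.893) and 0.46 between the knockouts (adjusted p = 0.701). In Mig-6 d/d against control the estimate was -0.28 without control replicate 3 and -0.37 without Mig-6 d/d replicate 2. Mast cells also make histamine, and a list of 10 mast cell markers had summed intensities of 74.46 to 90.87 in the double knockout and 88.83 to 139.79 in Mig-6 d/d, against 101.27 to 125.22 in control. The brightest of the 10 markers was the receptor gene Kit, which was at 88.05 in Mig-6 d/d replicate 2 and between 31.55 and 63.95 elsewhere. The other 9 markers summed to 42.91 to 58.55 in the double knockout and 49.38 to 54.42 in Mig-6 d/d, against 58.43 to 61.27 in control, and Mig-6 d/d replicate 2 was not the highest there. The mast cell protease Tpsb2 stayed between 4.83 and 7.02, and 0 of the 10 were called by limma (before adjustment, p was under 0.05 for 2 in the double knockout against control, 0 in Mig-6 d/d against control and 2 between the knockouts). The part of mast cells in the values of Hdc was not tested.

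Cyp26a1 encodes a cytochrome P450 that breaks down retinoic acid, and progesterone raises it in the epithelium before implantation in mice. Retinoic acid itself acts on the gene through a direct repeat close to its start site (the half-site AGTTCA on either strand, spaced by 5 bases), shown in capitals as the reference table holds it (GRCm38.p6, chr19:37697770-37697798, plus strand). Of 32851 promoters 7 had that exact repeat, 0.0213%.
Cyp26a1: taaagaTGAACTTTGGGTGAACTaatttg
Cyp26a1 was dim on 8 of the 9 arrays. Its intensities were 9.15, 9.16 and 11.33 in the double knockout and 9.84, 73.1 and 6.31 in Mig-6 d/d, against 9.97, 17.67 and 13.55 in control. Mig-6 d/d replicate 2 alone was high, and the rest lay near the median of all intensities, 8.07. The log2 fold changes were -0.44 in the double knockout against control (adjusted p = 0.941), 0.31 in Mig-6 d/d against control (adjusted p = 0.884) and -0.75 between the knockouts (adjusted p = 0.642). Both changes that involve Mig-6 d/d had the other sign without Mig-6 d/d replicate 2, at -0.76 against control (adjusted p = 0.168) and 0.32 between the knockouts (adjusted p = 0.605).

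Gata2 encodes a transcription factor that acts with the progesterone receptor in the uterus. Its intensities were 370.12, 438.92 and 409.21 in the double knockout and 320.62, 350.27 and 331.4 in Mig-6 d/d, against 367.46, 353.54 and 424.22 in control. The 3 arrays of Mig-6 d/d were the 3 lowest of the 9. The differences were small, with an estimate of 0.28 (log2) for the double knockout over Mig-6 d/d (95% interval 0.04 to 0.52, adjusted p = 0.167, limma) and -0.19 in Mig-6 d/d against control (adjusted p = 0.406). Gata2 was the 1 gene of 8 whose arrays did not overlap between Mig-6 d/d and control, where 25.7% of all genes did not. Between the double knockout and control the change was 0.09 (95% interval -0.15 to 0.33, adjusted p = 0.918), and the arrays overlapped, as in all 8 genes (11.8% of all genes did not overlap). The dimmer Gata2 probe set had 162.84, 176.84 and 151.11 in the double knockout and 149.21, 152.84 and 132.84 in Mig-6 d/d, against 148.49, 162.6 and 174.69 in control, and there the groups overlapped.

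Sox17 encodes a transcription factor of the uterine epithelium and of vascular endothelium. Its intensities were 827.72, 966.06 and 676.11 in the double knockout and 870.41, 1400.19 and 639.01 in Mig-6 d/d, against 871.26, 924.61 and 1363.58 in control. The 2 highest values were those of Mig-6 d/d replicate 2 and control replicate 3, and the groups overlapped throughout. The log2 fold changes were -0.34 in the double knockout against control (adjusted p = 0.86), -0.17 in Mig-6 d/d against control (adjusted p = 0.828) and -0.18 between the knockouts (adjusted p = 0.807). Both Sox17 probe sets ran together (r = 0.976 over the 9 arrays).

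Several of the genes had wide differences between arrays of 1 group. Control replicate 3 lay more than 2-fold below both other control arrays in 4 of the 8 genes (Fst, Il13ra2, Fkbp5 and Hdc), where it did so in 134 of all 18193 genes, 0.737%. The SD of the log2 intensities over the control arrays was 2.39 for Fst, 1.61 for Il13ra2, 1.48 for Fkbp5 and 0.855 for Hdc, and 99.99, 99.93, 99.84 and 99.14% of all genes had a smaller one. Mig-6 d/d replicate 2 lay more than 2-fold above both other arrays of its group in Cyp26a1 and Hdc, where it did so in 0.429% of all genes. The SD over the Mig-6 d/d arrays was 1.88 for Cyp26a1, 1.02 for Hdc and 0.913 for Il13ra2, above that of 99.96, 99.57 and 99.44% of all genes. No array of the double knockout lay more than 2-fold from both others in any of the 8 genes. These shares of all genes are descriptions, and the 8 genes are not independent of one another. The choice of these arrays followed from their values.

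**Figure D2:**
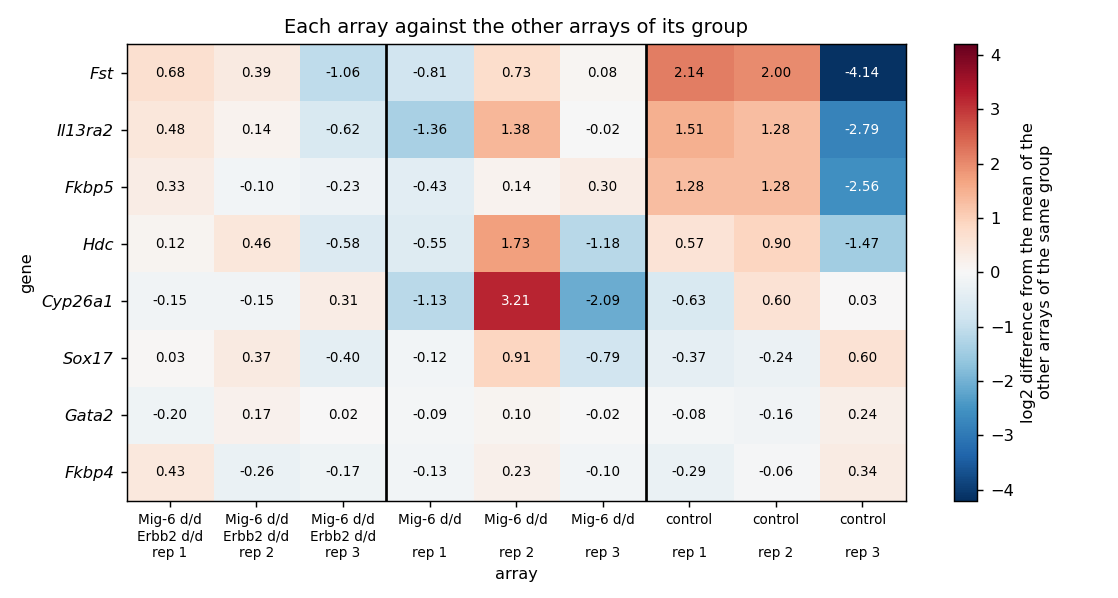
Log2 difference of each array from the mean of the other 2 arrays of its group, for the 8 genes (rows) on the 9 arrays (columns). Control replicate 3 is lowest in Fst at -4.14, and Mig-6 d/d replicate 2 is highest in Cyp26a1 at 3.21 above dim values, while Gata2 and Fkbp4 stay within 0.43 of their groups.

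Over the 9 arrays the log2 intensities of Fst, Fkbp5, Il13ra2 and Hdc were positively correlated, with r between 0.678 (Hdc and Fkbp5) and 0.935 (Fst and Fkbp5). Cyp26a1 and Sox17 had r = 0.72, and Gata2 and Fkbp4 r = -0.50. Without Mig-6 d/d replicate 2 and control replicate 3, the first 4 genes had r between 0.567 (Hdc and Fkbp5) and 0.902 (Fkbp5 and Il13ra2). Over these other 7 arrays Cyp26a1 and Sox17 had r = 0.493, and Gata2 and Fkbp4 r = -0.889. Some pairs with a gene outside the 4 lay in the same range there, as Gata2 and Hdc (0.734), Sox17 and Hdc (0.693) and Gata2 and Il13ra2 (0.687). Others lay below it, as Sox17 and Fkbp5 (0.18). These values share the same arrays and are given as descriptions. By the same measure, among the 1191 other genes with an SD of at least 0.5 over the arrays, the pattern most like that of Fst was that of Angptl7 (r = 0.981), and that most like Il13ra2 was that of Sult1a1 (r = 0.985). That most like Fkbp5 was Ctla2a (r = 0.962), followed by the implantation cytokine Lif (r = 0.950) and by Fst itself. The gene most like Hdc was Pcx (r = 0.974). These genes were looked up after the values had been seen, since a search of this kind had been set only for called genes.

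What leaving out control replicate 3 does to the estimates is plotted with the intervals of both fits. In Mig-6 d/d against control the estimates of Fst and Il13ra2 became more negative, those of Hdc and Fkbp5 turned negative, and that of Sox17, -0.17 with all arrays, was 0.04. In the double knockout against control those of Fst and Fkbp5 turned negative, with Fst at -1.04 (SE 0.35, adjusted p = 0.545). The comparison between the knockouts does not use the control arrays except for its estimate of the spread, and its estimates stayed as they were.

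**Figure D3:**
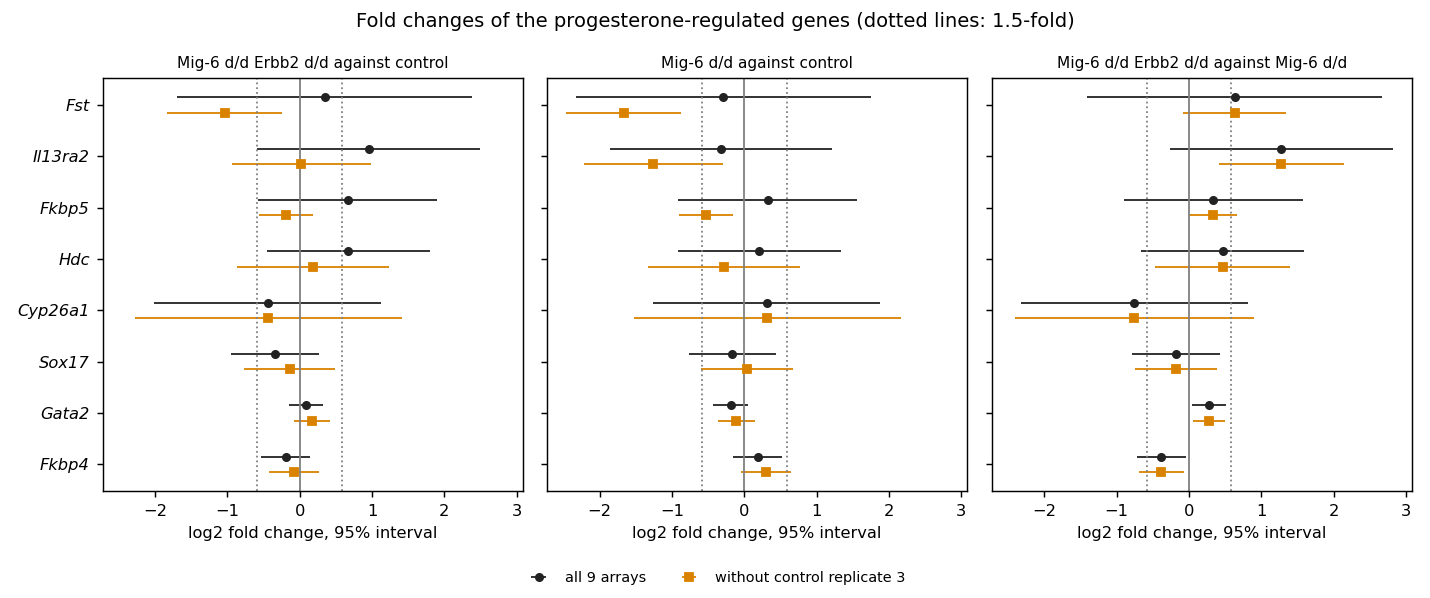
Log2 fold change with its 95% interval (limma) for the 8 genes in the 3 comparisons, from all 9 arrays (black circles) and without control replicate 3 (orange squares), with dotted lines at 1.5-fold. In Mig-6 d/d against control, Fst stands at -0.29 with all arrays and at -1.67 without that array.

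The other genes that respond to progesterone were read as a list of 18, of which 16 had a probe set of 1 gene. Errfi1, which is deleted in both knockouts, and Pgr, which hosts the cre, belong to that list. Their loci were altered by design in both knockouts, so the other 14 are counted here. An effect of the cre on the level of Pgr was not tested. In the double knockout against control 0 of the 14 were called (limma; 0 at an unadjusted p under 0.05) and their median log2 fold change was 0.07. In Mig-6 d/d against control 0 were increased and 2 decreased, where 1.8% of all genes were decreased, with 11 of 14 lower and a median of -0.40. At an unadjusted p under 0.05 (limma) 7 of the 14 passed there, where 24% of all genes did. Between the double knockout and Mig-6 d/d 2 were increased, where 3.73% of all genes were, with 13 of 14 higher and a median of 0.54. Of the 14, 8 had an unadjusted p under 0.05 (limma), where 26.5% of all genes did. Without control replicate 3 the medians against control were 0.00 in the double knockout and -0.58 in Mig-6 d/d, and 3 of the 14 were increased between the knockouts. With all arrays, the genes called decreased in Mig-6 d/d against control and increased between the knockouts were the same pair, Nr2f2 and Gli1. Nr2f2, a nuclear receptor of the stroma that acts below Indian hedgehog, had intensities of 657.51, 564.23 and 545.4 in the double knockout and 363.27, 319.11 and 360.79 in Mig-6 d/d, against 544.58, 686.85 and 553.99 in control. Relative to control it fell by 0.77 in Mig-6 d/d on the log2 scale (adjusted p = 0.0137, limma, SE 0.12) and was higher by 0.76 in the double knockout than in Mig-6 d/d (adjusted p = 0.00796), and both calls held without each array in turn. Gli1, a transcription factor that hedgehog signalling induces, fell by 0.91 in Mig-6 d/d relative to control (SE 0.20, adjusted p = 0.0398) and was higher by 1.05 in the double knockout than in Mig-6 d/d (adjusted p = 0.0148). Its first call was lost without control replicates 2 or 3, Mig-6 d/d replicate 1, the one labelled Mig-6 d/d replicate 3, or else double-knockout replicate 1 (adjusted p between 0.0564 and 0.129). Its second was lost without Mig-6 d/d replicate 1, the one labelled Mig-6 d/d replicate 3, or else double-knockout replicates 1 or 2 (adjusted p between 0.052 and 0.0607). Markers of stroma and smooth muscle differed in the same directions. Of 10 stromal markers 10 had lower means in Mig-6 d/d relative to control (median log2 fold change -0.40, with Vim called) and 10 had higher means in the double knockout relative to Mig-6 d/d (median 0.40, with Col1a1 and Col6a1 called). Their summed intensities were 28665.02 to 31088.25 in the double knockout and 21103.09 to 25655.8 in Mig-6 d/d, against 25953.76 to 29523.24 in control. Of 8 smooth muscle markers 8 had lower means in Mig-6 d/d relative to control (median -0.62, 0 called by limma and 7 at an unadjusted p under 0.05) and 8 had higher means in the double knockout relative to Mig-6 d/d (median 1.01, with Des, Cnn1, Actg2 and Smtn called). Those summed to 15454.73 to 19079.65 in the double knockout and 8631 to 12014.94 in Mig-6 d/d, against 12734.8 to 16788.58 in control. Over the fits without 1 array the stromal calls in Mig-6 d/d against control ran between 0 and 2, and those between the knockouts between 1 and 3 in stroma and between 1 and 5 in smooth muscle. The part of these markers in the values of Nr2f2 and Gli1 was not tested.

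Control replicate 3 stood apart in part of this list as well. It lay more than 2-fold below both other control arrays in 3 of the 16 genes, where it did so in 0.737% of all genes. Acod1, an enzyme of immune metabolism that progesterone induces in the mouse epithelium, had 420.33, 467.83 and 299.43 in the double knockout and 258.38, 690.68 and 95.26 in Mig-6 d/d, against 246.42, 227.93 and 22.25 in control. The endocytic receptor gene Lrp2 had 134.25, 161.43 and 111.35 in the double knockout and 65.45, 182.71 and 57.23 in Mig-6 d/d, against 101.95, 117.62 and 15.87 in control. The transcription factor gene Zbtb16 had 99.25, 105.27 and 70.3 in the double knockout and 20.44, 36.33 and 63.2 in Mig-6 d/d, against 96.36, 70.71 and 12.31 in control. In Acod1 and Lrp2 the highest of the 9 values was again that of Mig-6 d/d replicate 2. Among the other genes were the stromal genes Nr2f2, Gli1 and Hand2, and also Ihh, Sgk1, Bmp2 and Klf15. None of these other genes set control replicate 3 apart in that way. Pgr was highest in that array, at 1612.76, against 1064.74 and 1106.85 in the other control arrays.

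**Figure D4:**
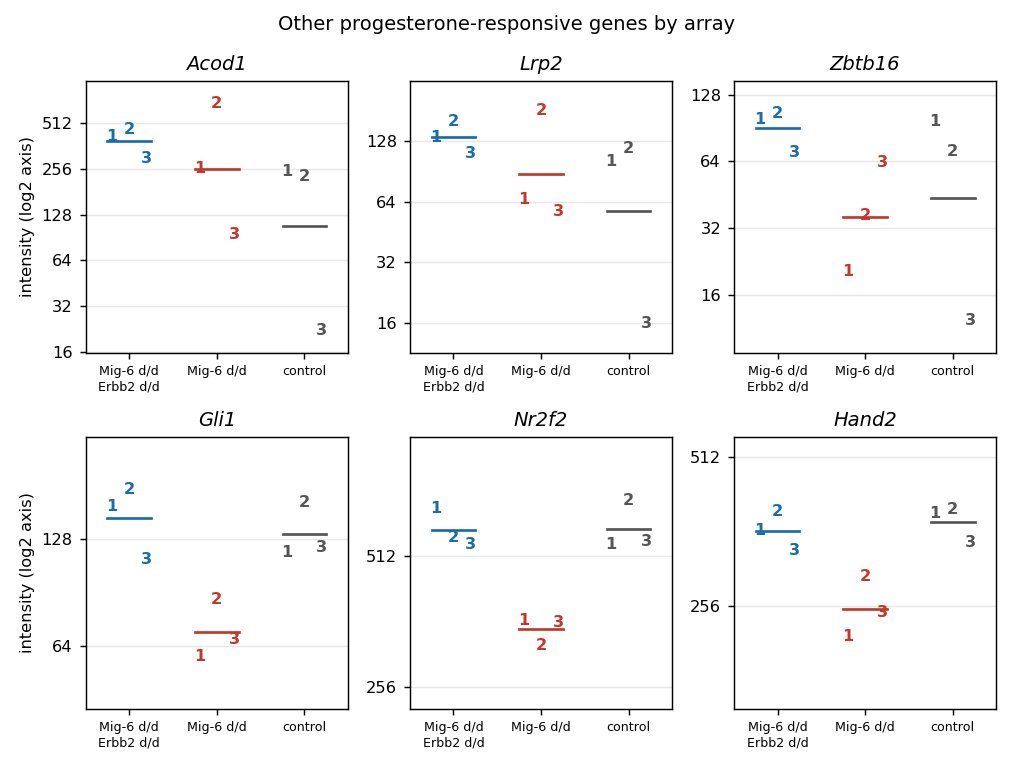
Intensity (log2 axis) of 6 other progesterone-responsive genes on each array, with numerals for replicates and lines for the mean of the log2 values of a group. Acod1, Lrp2 and Zbtb16 share the low value of control replicate 3. In Gli1, Nr2f2 and Hand2 the 3 arrays of Mig-6 d/d lie below all others, as in Tsc22d3 and Klf15 of the same list (not plotted). Arrays of Mig-6 d/d and control did not overlap in 25.7% of all genes, and those of the knockouts in 32.8%, in either direction.

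Partners of these genes in their pathways were read in the same way, and most lists had 1 or 2 calls in a comparison, where 4.35% of all genes were called in Mig-6 d/d against control and 7.48% between the knockouts. Of 9 genes of the calcitonin family and its receptors, Ramp1 and Ramp2, coreceptors of the calcitonin-like receptor, were increased between the double knockout and Mig-6 d/d, and Ramp2 was decreased in Mig-6 d/d against control. Of 13 genes of the retinoid pathway, Crabp1, which binds retinoic acid in the cytoplasm, was increased between the knockouts, while its relative Crabp2 and the retinol dehydrogenase gene Rdh10 were decreased. Of 13 genes of the activin pathway, the follistatin-like gene Fstl1 and the inhibin subunit gene Inha were increased between the knockouts, and Fstl1 was decreased in Mig-6 d/d against control. Fstl1 averaged 1426 in the double knockout and 891.2 in Mig-6 d/d, against 1391 in control (SD 69.54, 149.9 and 114.7, n = 3 each). Of 7 genes of the histamine pathway, Aoc1, whose enzyme degrades histamine, was increased in Mig-6 d/d against control. Of 8 genes of the interleukin-13 pathway, the receptor chain gene Il13ra1 was decreased and the signalling inhibitor gene Socs1 increased between the knockouts. Of 9 relatives of Gata2 and Sox17, Sox18 was increased and Sox7 decreased between the knockouts, and Sox18 was decreased in Mig-6 d/d against control. Of 10 chaperones and partners of steroid receptors 0 were called in any comparison (limma; at an unadjusted p under 0.05, 1 in the double knockout against control, 2 in Mig-6 d/d against control and 1 between the knockouts). In the double knockout against control 0 genes of these lists were called by limma, and p before adjustment was under 0.05 for 4 in the retinoid list, 1 among the chaperones and 0 in the others, where it was for 7.95% of all genes. Each of these calls was lost when at least 1 array was left out, the calls of Ramp2 and Fstl1 between the knockouts only without Mig-6 d/d replicate 1 (adjusted p = 0.0518) and without double-knockout replicate 2 (adjusted p = 0.0532), the others without 3 to 8 of the 9 arrays (adjusted p between 0.0503 and 0.161).

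General markers of the uterine epithelium, in which several of the progesterone-regulated genes are expressed, differed between the groups on the same arrays. Of 15 epithelial markers 0 were called in the double knockout against control (limma; 0 at an unadjusted p under 0.05), 8 were increased in Mig-6 d/d against control (2.54% of all genes were), and 11 were decreased between the double knockout and Mig-6 d/d (3.75% of all genes were). Without 1 array the increased markers in Mig-6 d/d numbered 2 (without control replicate 2, Mig-6 d/d replicate 1 or the one labelled Mig-6 d/d replicate 3) to 11 (without control replicate 3), with 3 without double-knockout replicate 2 or control replicate 1. There were 5 when double-knockout replicate 1 was left out. The decreased ones between the knockouts numbered 5 (without double-knockout replicate 1) to 12, with 7 without Mig-6 d/d replicate 1. Their summed intensities were 3094.92 to 4389.09 in the double knockout and 8741.56 to 12982.18 in Mig-6 d/d, against 3438.91 to 6111.6 in control, where the highest control sum was that of replicate 3. The tight junction gene Cldn7 averaged 316.4 in the double knockout and 1272 in Mig-6 d/d, against 288.8 in control (SD 107.7, 292 and 79.22, n = 3 each). Of 7 gland markers 0 were called by limma in any comparison. Before adjustment p was under 0.05 for 1 in the double knockout against control, 0 in Mig-6 d/d against control and 2 between the knockouts. In Mig-6 d/d against control 5 of the 7 were lower (median log2 fold change -0.17). Gland markers summed to 308.67 to 516.63 in the double knockout and 299.65 to 675.95 in Mig-6 d/d, against 354.81 to 886.77 in control. Of 10 genes that estrogen induces in the epithelium, 5 were increased in Mig-6 d/d against control with a median log2 fold change of 3.24, and 6 were decreased between the knockouts with a median of -3.40. In the double knockout against control 1 of the 10, the protease gene Ctse, was decreased. That call was lost without control replicate 1 or double-knockout replicates 1 or 3. None of the 10 was called in Mig-6 d/d against control without control replicate 2 or Mig-6 d/d replicate 1, and 1 to 3 were without the one labelled Mig-6 d/d replicate 3, double-knockout replicate 1, control replicate 1 or Mig-6 d/d replicate 2, while 8 were without double-knockout replicate 3. Between the knockouts the calls numbered 1 to 3 without double-knockout replicates 1 or 2, Mig-6 d/d replicate 1 or the one labelled Mig-6 d/d replicate 3, and 5 to 9 without each other array. Of 11 endothelial markers 4 were decreased in Mig-6 d/d against control (1.8% of all genes were) and 5 increased between the knockouts (3.73%). There were 0 decreased without control replicate 2 or Mig-6 d/d replicate 1, and 2 without Mig-6 d/d replicate 2 or any 1 array of the double knockout. Between the knockouts 2 were increased without Mig-6 d/d replicates 1 or 2 or double-knockout replicate 2, and 3 when double-knockout replicate 1 was left out. The part of these shifts in cell markers in the values of the progesterone-regulated genes was not tested.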

How the data were processed

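Uteri at GD 3.5 were profiled on Affymetrix mouse arrays, 3 per genotype. The authors normalized the arrays with Bioconductor (quantile normalization; RMA is named in the submitters' processing notes; no version is given in the sources used here) and deposited 1 intensity per probe set and array on a linear scale, 2.11 to 11548.76. Log2 values were computed from these and fitted with limma 3.58.1 (R 4.3.3, lmFit and eBayes) in 1 model of the 3 groups over 45037 probe sets, as tested on simulated data. Probe sets were named from the platform table (34945 with 1 symbol, 932 with several, 9160 unnamed here). Genes were read at the brightest probe set. Named genes were the members and, per list, the largest called changes or else the smallest p-values. Promoters came from RefSeq (GRCm38.p6), with entries for 7 of the 9 genes. Scanner files were not used, so signal over background is unknown, and precision is limited by the 9 arrays. Alternatives covered scaling, filters, thresholds, tests and arrays left out. The members and lists were chosen with earlier results of these data known. Leaving Errfi1 and Pgr, or Kit, out of a list, and 2 arrays out of the correlations, was chosen after seeing the data. Figures were drawn with matplotlib 3.10.9.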

Additional observations from a re-analysis of the deposited data

How the results depend on the processing

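Across 21 alternatives, 0 of the 8 genes were called in any comparison except without control replicate 3, where Fst was called in Mig-6 d/d against control (member genes called 0 to 1 and member probe sets called 0 to 2 over the fits that left out 1 array each). Leaving out 1 array gave these ranges of the log2 fold change for estimates that changed sign. In the double knockout against control they were -1.04 to 1.06 for Fst and -0.19 to 1.09 for Fkbp5. In Mig-6 d/d against control they were -1.67 to 0.43 for Fst, -1.26 to 0.18 for Il13ra2, -0.53 to 0.75 for Fkbp5, -0.37 to 0.60 for Hdc, -0.76 to 1.00 for Cyp26a1 and -0.47 to 0.10 for Sox17. Between the double knockout and Mig-6 d/d they were -1.45 to 0.32 for Cyp26a1 and -0.44 to 0.13 for Sox17. With array weights Fst was 0.17 in Mig-6 d/d against control. Fits with fewer arrays estimate each group from fewer values. In all, 487 values of single genes kept their direction and side of the threshold, and 16 changed sign, all of them not called in either setting. The replicate numbers do not pair the arrays (correlations of the deviations of same-numbered arrays between -0.133 and 0.203), and with the replicate block the count of called members stayed at 0, while calls over all probe sets were 134 in the double knockout against control, 1451 in Mig-6 d/d against control and 2505 between the knockouts. Without a single array the calls over all probe sets in Mig-6 d/d against control ran between 353 (without control replicate 2) and 1762 (without control replicate 1), in the double knockout against control between 86 (without double-knockout replicate 1) and 156, and between the knockouts between 1133 (without the same array) and 2545, against 1265, 161 and 2312 with all arrays. With only the 6 arrays compared they were 612, 90 and 2771, and by the fold limit and p before adjustment (under 0.05) 2660, 862 and 3552. The unpaired t-test, which the methods do not name for the arrays, called 1797, 529 and 2934, and after adjustment 0, 0 and 35, each in that sequence of comparisons. A filter on dim probe sets kept 23344 probe sets, 15 of them of the members. Cyp26a1 is limited by its low signal on 8 of the 9 arrays, and changes of Fst, Il13ra2, Fkbp5 and Hdc by the spread of 3 control arrays.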
